A study of Homo sapiens with 6 samples.

Results

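The mitochondrial genome gives cells a small set of transcripts of its own, and these were followed here in T98G, an established human glioblastoma cell line. All rows of the expression table whose gene name starts with MT- were taken, which gave 37 of the 35750 genes listed: 13 mRNAs, 2 rRNAs and 22 tRNAs. The study compared 3 libraries labelled shControl with 3 labelled shSLC1A5, that is, T98G cells with a control short hairpin RNA and T98G cells with one against SLC1A5, a plasma membrane carrier of glutamine and other neutral amino acids. Cells of both groups were kept in DMEM with fetal bovine serum and antibiotics, and RNA was captured on oligo(dT) beads before sequencing. The labels name neither the hairpin sequence, the time after its delivery nor a clone, and they do not say whether the replicates were separate cultures, so the p-values below reflect how far these libraries vary, which can be technical variation alone.

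As background, both strands of the circular mitochondrial DNA are read by the polymerase POLRMT into long RNAs that span many genes. The tRNAs lie between most of the mRNAs and rRNAs and are cut out of the precursors, which frees the RNAs on either side. The mRNAs encode subunits of respiratory complexes I, III and IV and of the ATP synthase (complex V), and the rRNAs and tRNAs serve the ribosomes inside the organelle. Most of the mRNAs carry a short poly(A) tail, whereas mature tRNAs do not and MT-ND6 mRNA is known to lack one.

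Every one of the 37 genes matched GENCODE 29 (GRCh38) in position, strand and length, and all of them lie on the mitochondrial chromosome, MT. On the plus strand of the reference lie 28 of them, including 12 mRNAs, both rRNAs and 14 tRNAs. The minus strand holds 9, MT-ND6 and 8 tRNAs, whose RNA is made from the light-strand promoter, so they are called the light-strand genes here. The tRNA genes are 59 to 75 bases long, shorter than a sequencing read of these libraries. Whether the counting used strand is not given in the sources used here, and without it reads from a gene and from RNA of the opposite strand across it cannot be told apart.

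The 4 tRNAs with the largest falls among those past the test threshold are shown, each 5′ to 3′ on its own strand with the anticodon in capitals.
MT-TK, tRNA-Lys, MT:8295-8364, plus strand: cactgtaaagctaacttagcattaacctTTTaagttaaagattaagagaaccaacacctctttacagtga
MT-TT, tRNA-Thr, MT:15888-15953, plus strand: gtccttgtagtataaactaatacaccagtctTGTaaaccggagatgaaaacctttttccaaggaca
MT-TF, tRNA-Phe, MT:577-647, plus strand: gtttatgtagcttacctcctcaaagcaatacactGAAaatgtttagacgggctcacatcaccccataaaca
MT-TP, tRNA-Pro, MT:15956-16023, minus strand: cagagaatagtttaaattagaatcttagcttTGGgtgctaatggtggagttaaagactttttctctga
Of 3 overlaps between mRNA genes, where a read within the shared bases belongs to both, that of MT-ATP6 and MT-CO3 is 1 base (MT:9207) and the other 2 are given in capitals on the plus strand with 30 bases on each side.
MT-ATP8 and MT-ATP6, MT:8497-8602, 46 shared bases: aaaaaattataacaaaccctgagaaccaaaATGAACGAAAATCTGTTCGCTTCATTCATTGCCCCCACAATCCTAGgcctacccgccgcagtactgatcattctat
MT-ND4L and MT-ND4, MT:10730-10796, 7 shared bases: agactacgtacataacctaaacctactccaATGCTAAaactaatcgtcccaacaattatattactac
Both overlaps shown begin with the ATG start codon of the downstream gene, and each pair is known to share one mRNA. The capitals run to the last base of the upstream gene.

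Total counts ran from 59327548 to 70802167 per library. SLC1A5, the gene targeted by the hairpin, stood at 95.0, 95.3 and 97.1 FPKM (fragment counts scaled by gene length and by library size) in the shControl libraries and at 87.5, 88.0 and 88.3 FPKM in the shSLC1A5 libraries, a log2 fold change of -0.14 that passed the test and was -0.34 with the offsets for GC content and length described below. Of the T98G markers looked up, VIM, CD44 and FN1 were present and NES, SOX2, GFAP, OLIG2 and S100B were below 1 FPKM in each of the 6 libraries. One library stood apart: the 17 listed RNAs without a poly(A) tail summed to 2782 FPKM in shSLC1A5 replicate 1, against 38.8 to 78.5 FPKM in the shControl libraries and 46.4 and 48.9 FPKM in the other shSLC1A5 libraries. Markers of blood and plasma cells, 14 genes, summed to 0.641 to 0.894 FPKM in the shControl libraries and to 70.5, 6.62 and 9.65 FPKM in the shSLC1A5 libraries, while MPO, which marks neutrophil precursors, was at 0 in all 6. The part of these RNAs in the mitochondrial results was not tested beyond leaving out that library, which left 24 mitochondrial genes called lower in place of 23.

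Mitochondrial transcripts took a smaller part of the RNA in the shSLC1A5 libraries. They held 4.20%, 4.20% and 4.17% of all counts in shControl and 3.90%, 3.80% and 3.92% in shSLC1A5. The means were 4.19% ± 0.0200 (SD, n = 3) and 3.87% ± 0.0658 (SD, n = 3), and the groups did not overlap. An exact two-sided permutation test of 3 against 3 libraries cannot go below 0.1, and it gave p = 0.1 (0.15 adjusted over the 18 shares and ratios computed). Without shSLC1A5 replicate 1 the difference was -0.330 percentage points, against -0.315 with it. In RNA from whole cultures, fewer cells with a transcript and less of it per cell cannot be told apart. Since a share is relative, neither can less mitochondrial RNA and more of the other RNA.

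**Figure D1:**
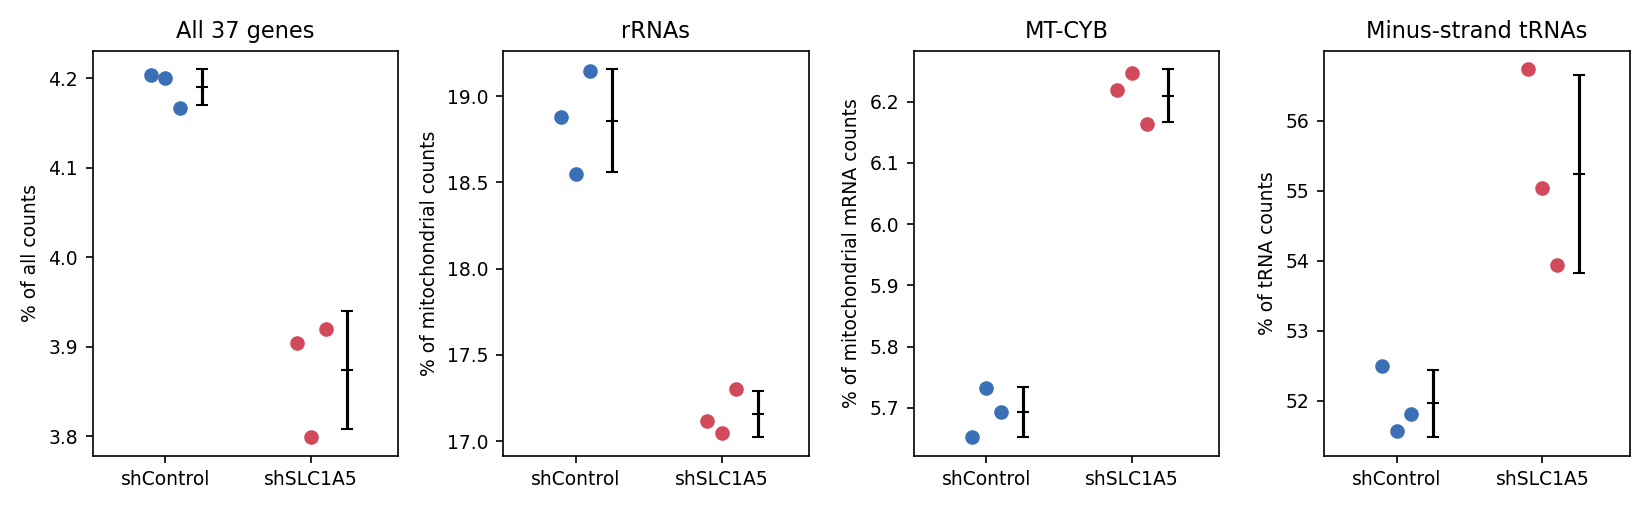
Shares of counts in percent in 4 panels (all 37 genes, rRNAs, MT-CYB, and light-strand, that is minus-strand, tRNAs), with 1 point for each library and a bar for mean ± SD beside each group (n = 3); the axes do not start at 0. The shSLC1A5 libraries lie at 3.80% to 3.92% of all counts, below the shControl libraries at 4.17% to 4.20%, the rRNA share lies lower as well, and the shares of MT-CYB and of light-strand tRNAs lie higher.

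Gene by gene, 23 of the 37 mitochondrial genes were lower in shSLC1A5 and 0 were higher at an adjusted p under 0.05 (edgeR's quasi-likelihood test, adjusted over all 11841 genes tested). Over all tested genes 39.2% passed, 19.0% lower and 20.2% higher. The 23 make up 62.2% of the mitochondrial genes. The median log2 fold change was -0.17 over the 37 genes and -0.01 over all genes tested. The filter on low values, which kept genes averaging 1 FPKM or more, removed none of the 37.

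Over the tested genes at large, the log2 fold changes went with a property of the transcripts. Whether they did so within the 37 mitochondrial genes was not tested. Across the 11800 tested genes with a GC value, the log2 fold change was the higher the more G and C bases the longest transcript held (Spearman's rho 0.49, across genes, which are not independent replicates). The mitochondrial genes had a median GC content of 42.7% (range 23.1% to 49.3%), against 48.0% for tested genes. When offsets for GC content and length were fitted, 8 of the 37 were called lower and 1 higher, with a median log2 fold change of -0.07, while 25.4% of all tested genes were called, 13.8% lower and 11.6% higher. The 8 were MT-RNR1, MT-RNR2, MT-ND1, MT-ND5, MT-ND6, MT-CO1, MT-TF and MT-TT, and the 1 was MT-CYB. Under the name GC offsets, results with these offsets stand below for each mitochondrial gene whose call they end, and for some other genes. The name covers both GC content and length, whose parts were not tested separately. The 37 genes were among those fitted. The offsets can therefore take up part of a change shared by genes of like GC content and length, such as the short tRNA genes.

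**Figure D2:**
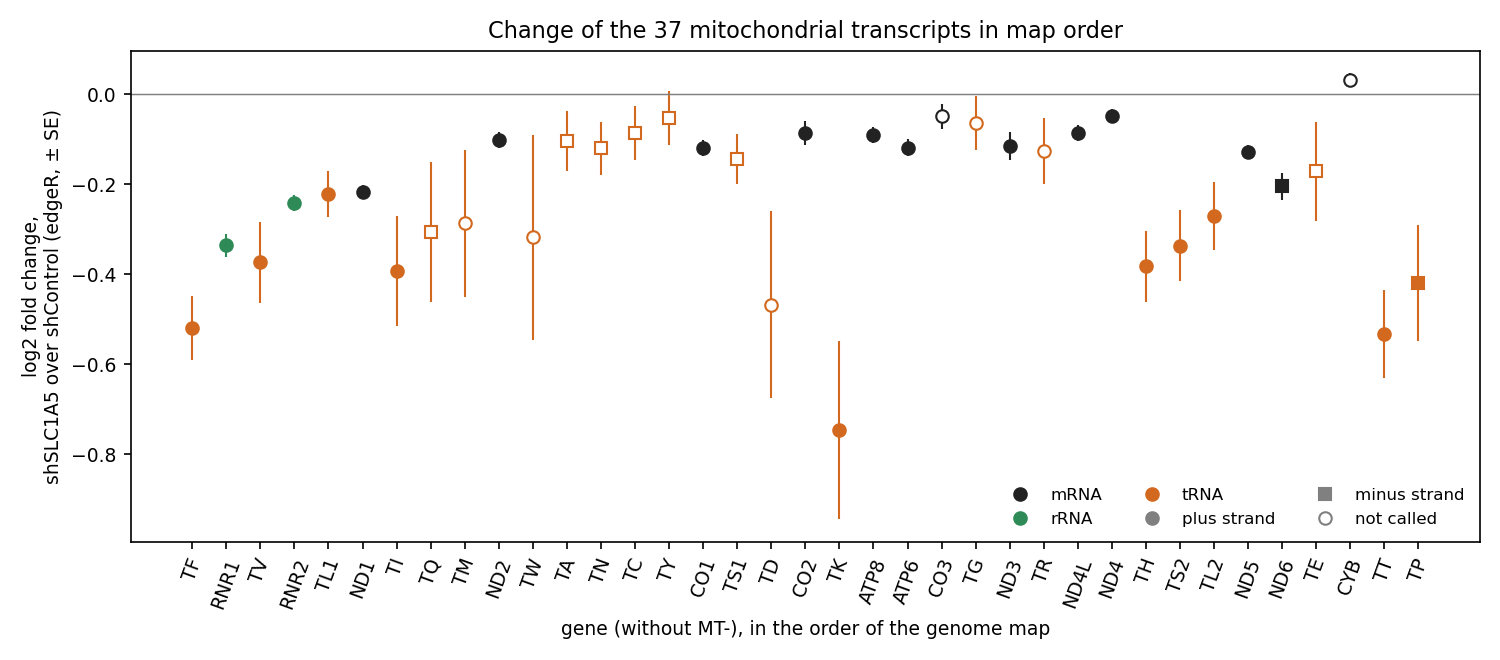
Log2 fold changes of shSLC1A5 against shControl for the 37 genes in map order, with bars of 1 SE, colours for mRNA, rRNA and tRNA, squares for the minus (light) strand and open symbols for genes that did not pass the test. MT-TK is lowest at -0.75, the rRNAs lie at -0.34 and -0.24, most mRNAs lie near -0.10, and MT-CYB at 0.03 is the only gene above 0.

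Both mitochondrial rRNAs were lower in shSLC1A5, with log2 fold changes below those of all 13 mRNAs. After quantile normalization this order did not hold for MT-RNR2, at -0.14, against -0.23 for MT-ND1 and -0.16 for MT-ND6. MT-RNR1 (ENSG00000211459, MT:648-1601), the 12S rRNA of the small ribosomal subunit, was at 1523, 1498 and 1545 FPKM in shControl and at 1247, 1171 and 1231 FPKM in shSLC1A5. All shSLC1A5 values lay below all shControl values, and the log2 fold change was -0.34 ± 0.0253 (SE; edgeR adjusted p = 2.85e-06), a fall by 20.8%. MT-RNR2 (ENSG00000210082, MT:1671-3229), the 16S rRNA of the large subunit, was at 3574, 3535 and 3621 FPKM against 3029, 2994 and 3131 FPKM. Its groups were apart as well, with a log2 fold change of -0.24 ± 0.0179 (SE; edgeR adjusted p = 2.52e-06). With GC offsets both stayed called, at -0.24 for MT-RNR1 and -0.17 for MT-RNR2.

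The rRNAs also lost ground to the mRNAs within the mitochondrial RNA. rRNA counts amounted to 23.6%, 23.1% and 24.0% of mRNA counts in shControl and to 20.9%, 20.8% and 21.2% in shSLC1A5 (exact permutation p = 0.1, adjusted 0.15). MT-RNR1 counts were 26.1%, 25.9% and 26.1% of MT-RNR2 counts in shControl and 25.2%, 23.9% and 24.1% in shSLC1A5 (exact permutation p = 0.1, adjusted 0.15). In both ratios the groups did not overlap, and 0.1 is the smallest p that this design allows. These libraries were made from poly(A)-selected RNA, in which rRNA is sampled only in part, so the ratios describe the captured RNA.

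**Figure D3:**
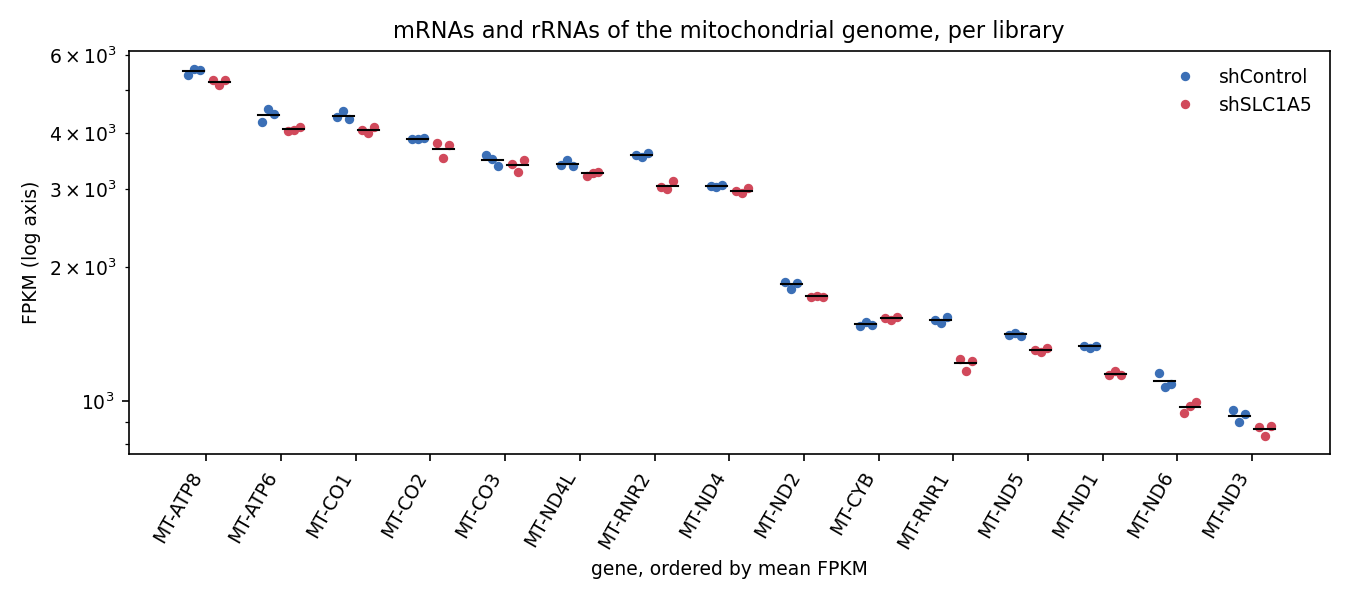
FPKM of the 13 mRNAs and 2 rRNAs on a log axis, ordered by mean FPKM, with 1 point per library and a line at the mean of the 3 libraries of each group. The shSLC1A5 points lie below the shControl points for both rRNAs and 11 mRNAs, overlap them for MT-CO3 and lie above them for MT-CYB.

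The 13 mRNAs were among the most abundant RNAs of these cells: MT-ATP8, MT-ATP6, MT-CO1, MT-CO2, MT-CO3 and MT-ND4L held ranks 2 to 7 by mean FPKM over the 6 libraries. Of the 13, 11 were lower in shSLC1A5 by the test, against 19.0% called lower among all tested genes. The median log2 fold change of the 13 was -0.10. FPKM of the groups did not overlap for 12 of the 13 (11 lower and MT-CYB higher), against 49.6% of all tested genes (22.3% lower and 27.3% higher). With GC offsets 4 mRNAs stayed lower, against 13.8% of all tested genes, and MT-CYB was called higher, against 11.6%. The median log2 fold change of the mRNAs was then -0.01.

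Complex I, the NADH dehydrogenase, has 7 subunits encoded here, and all 7 passed the test as lower, against 19.0% of all tested genes. With GC offsets only MT-ND1, MT-ND5 and MT-ND6 stayed called lower, against 13.8% of all tested genes. MT-ND1 (ENSG00000198888, MT:3307-4262) changed most, from 1334, 1317 and 1334 FPKM in shControl to 1147, 1167 and 1144 FPKM in shSLC1A5. Its log2 fold change was -0.22 ± 0.0155 (SE; edgeR adjusted p = 2.01e-06), with no overlap between the groups, and was -0.14 and still called with GC offsets. MT-ND1 lies directly after the rRNAs and MT-TL1, which fell by 0.22 on the log2 scale too.

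MT-ND5 (ENSG00000198786, MT:12337-14148), one of the antiporter-like membrane subunits, was at 1412, 1425 and 1404 FPKM in shControl and 1307, 1291 and 1315 FPKM in shSLC1A5. The 2 groups stood well apart at a log2 fold change of -0.13 ± 0.0148 (SE; edgeR adjusted p = 6.86e-05), which was -0.06 and still called with GC offsets. MT-ND2 (ENSG00000198763, MT:4470-5511), another such subunit, was at 1858, 1792 and 1843 FPKM against 1719, 1726 and 1718 FPKM. Its log2 fold change was -0.10 ± 0.0174 (SE; edgeR adjusted p = 9.64e-04), and it turned to 0.000314 with GC offsets. MT-ND4 (ENSG00000198886, MT:10760-12137) was at 3046, 3031 and 3059 FPKM against 2974, 2935 and 3009 FPKM, the smallest fall of the 7.

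The call of MT-ND4, at a log2 fold change of -0.05 ± 0.0145 (SE; edgeR adjusted p = 0.0234), rested on the choice of libraries and scaling. It was lost without shControl replicate 1 (edgeR adjusted p = 0.0719) and without shSLC1A5 replicate 2 (0.0534), and with GC offsets the value was 0.02. MT-ND4L (ENSG00000212907, MT:10470-10766), which shares its mRNA with MT-ND4, was at 3398, 3489 and 3371 FPKM against 3213, 3262 and 3278 FPKM, a log2 fold change of -0.09 ± 0.0170 (SE; edgeR adjusted p = 0.0025), and at -0.02 with GC offsets it was no longer called.

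MT-ND3 (ENSG00000198840, MT:10059-10404) is the shortest complex I gene of the mitochondrial genome apart from MT-ND4L. It was at 956, 896 and 935 FPKM in shControl and 876, 838 and 882 FPKM in shSLC1A5. The groups did not overlap, and the log2 fold change was -0.11 ± 0.0302 (SE; edgeR adjusted p = 0.0118). Without shControl replicate 1 (0.0502) or shSLC1A5 replicate 2 (0.0517) the adjusted p was above the threshold, and with GC offsets it was 0.420 at a log2 fold change of -0.03.

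MT-ND6 (ENSG00000198695, MT:14149-14673) is the only mRNA of the light strand. This mRNA is known to lack a poly(A) tail, and whether the counting used strand is not given. Its counts can therefore include RNA of the opposite strand. MT-ND6 was at 1159.8, 1074 and 1091 FPKM in shControl and at 939.9, 977 and 996 FPKM in shSLC1A5. All shSLC1A5 values were below all shControl values, with a log2 fold change of -0.20 ± 0.0306 (SE; edgeR adjusted p = 4.13e-04) that stayed called at -0.11 with GC offsets, but not with a replicate block added to them (0.0582). MT-ND6 counts were 23.8%, 21.8% and 22.5% of the counts of its opposite-strand neighbour MT-ND5 in shControl and 20.8%, 21.9% and 21.9% in shSLC1A5. These ratios overlapped between the groups (exact permutation p = 0.3, adjusted 0.386). With 3 libraries a group this test cannot go below 0.1, so it could not decide whether MT-ND6 fell beyond MT-ND5.

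Complex III, the cytochrome bc1 complex, has 1 subunit encoded here, and it was the exception among the mRNAs. MT-CYB (ENSG00000198727, MT:14747-15887), cytochrome b, was at 1475, 1511 and 1481 FPKM in shControl and at 1540.04, 1522 and 1544 FPKM in shSLC1A5. Each shSLC1A5 library lay above each shControl library, but the log2 fold change of 0.03 ± 0.0154 (SE) did not pass the test (edgeR adjusted p = 0.127). It was called higher with GC offsets (0.10, edgeR adjusted p = 0.00321), with library totals in place of TMM scaling (0.04, 0.0384), when only genes averaging 5 FPKM or more were kept (0.05, 0.0324), after quantile normalization (0.10, limma adjusted p = 1.63e-04) and without shControl replicate 2 (0.04, 0.0304). Its value was above 0 under each of the 20 alternatives.

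MT-CYB took a larger part of mitochondrial mRNA counts, 6.22%, 6.25% and 6.16% in shSLC1A5 against 5.65%, 5.73% and 5.69% in shControl (exact permutation p = 0.1, adjusted 0.15). This share does not depend on the scaling between libraries. The shares of the other complexes overlapped between the groups, at means of 39.7% and 39.5% for complex I, 40.7% and 40.6% for complex IV and 13.9% and 13.7% for complex V in shControl and shSLC1A5.

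Complex IV, cytochrome c oxidase, has its 3 catalytic core subunits encoded here. Of these, 2 passed the test as lower, against 19.0% of all tested genes. MT-CO1 (ENSG00000198804, MT:5904-7445), which carries the oxygen-reducing centre, was at 4347, 4479 and 4317 FPKM in shControl and 4062, 4008 and 4141 FPKM in shSLC1A5. The groups were apart, at a log2 fold change of -0.12 ± 0.0174 (SE; edgeR adjusted p = 3.61e-04), and with GC offsets the call stood just inside the threshold (-0.06, adjusted p = 0.0493) and was lost with a replicate block added (0.0622). MT-CO2 (ENSG00000198712, MT:7586-8269), which takes electrons from cytochrome c, was at 3884, 3891 and 3901 FPKM against 3801, 3521 and 3769 FPKM.

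For MT-CO2 the shControl libraries nearly coincided while shSLC1A5 replicate 2 lay far below the other 2, and the log2 fold change was -0.09 ± 0.0269 (SE; edgeR adjusted p = 0.0255). The call was lost without shControl replicate 1 (0.0713) or 3 (0.0546), and the value was 0.00126 with GC offsets. Without shSLC1A5 replicate 2 it was -0.05 and still called (0.0227). MT-CO3 (ENSG00000198938, MT:9207-9990) was at 3576, 3494 and 3370 FPKM against 3422, 3275 and 3487 FPKM. Its groups overlapped, and the log2 fold change of -0.05 ± 0.0279 (SE; edgeR adjusted p = 0.193) did not pass.

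Complex V, the ATP synthase, has 2 subunits encoded here on 1 shared mRNA. Both passed the test as lower, by similar amounts, against 19.0% of all tested genes. MT-ATP8 (ENSG00000228253, MT:8366-8572) was at 5414, 5578 and 5553 FPKM in shControl and 5266, 5141 and 5263 FPKM in shSLC1A5, a log2 fold change of -0.09 ± 0.0178 (SE; edgeR adjusted p = 0.0023). MT-ATP6 (ENSG00000198899, MT:8527-9207), which forms part of the proton path, was at 4238, 4531 and 4420 FPKM against 4045, 4075 and 4138 FPKM, a log2 fold change of -0.12 ± 0.0199 (SE; edgeR adjusted p = 9.06e-04). Neither pair of groups overlapped, while shSLC1A5 lay wholly lower in 22.3% of all tested genes. With GC offsets both stood at -0.01 and neither was called.

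Of the 22 tRNA genes 10 passed the test as lower and 0 as higher, with a median log2 fold change of -0.30, against 19.0% called lower among all tested genes. With GC offsets 2 of the 22 were called lower, against 13.8%. Reads of these libraries are longer than a mature tRNA, and poly(A) capture does not select tRNAs, so the counts can come from precursors or from neighbouring transcripts that run across the gene and are not levels of mature tRNA. Levels spanned a wide range: MT-TC, the tRNA gene of highest FPKM, was at 745, 726 and 689 FPKM in shControl, and MT-TW, the lowest, at 15.5, 11.9 and 14.7 FPKM. Of the 22, FPKM of 14 did not overlap between the groups, all of them lower in shSLC1A5, against 22.3% of all tested genes.

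**Figure D4:**
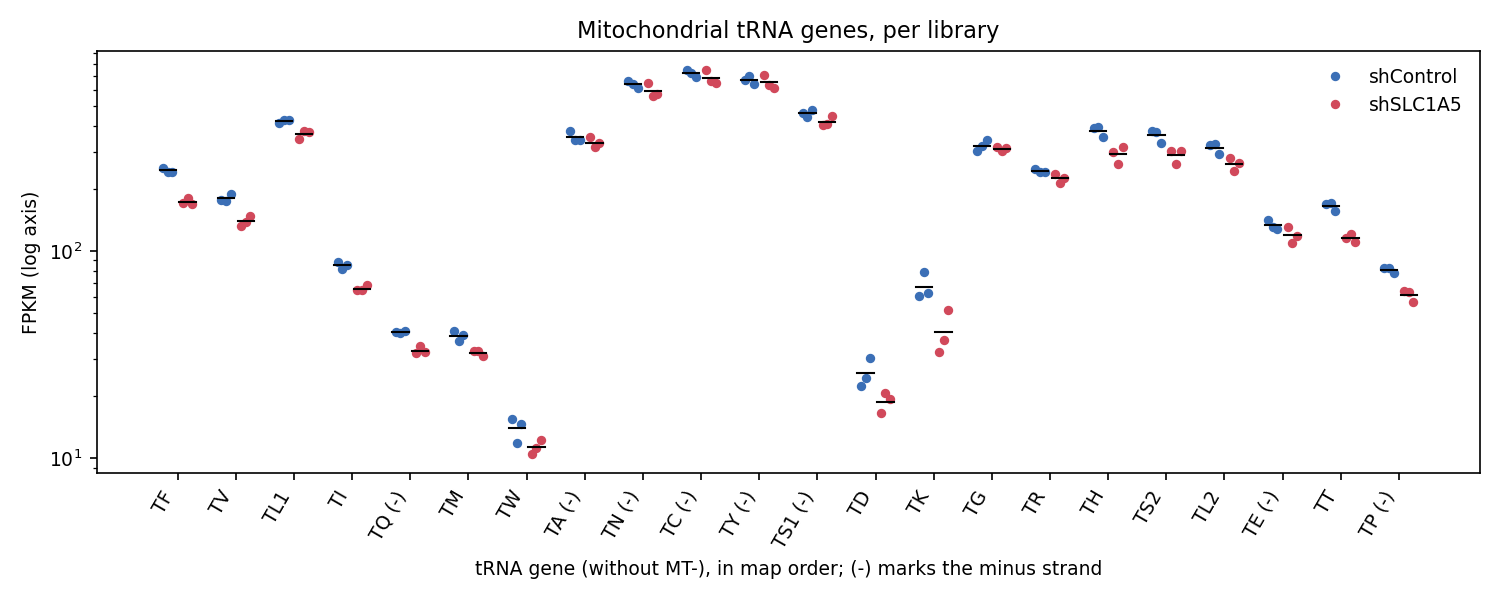
FPKM of the 22 tRNA genes on a log axis in map order, with 1 point per library, a line at the mean of each group and (-) beside the genes of the minus (light) strand. The shSLC1A5 points lie below the shControl points for 14 genes and overlap them for 8, among them MT-TA, MT-TN, MT-TC and MT-TY.

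The largest fall was that of MT-TK, the tRNA-Lys gene between MT-CO2 and MT-ATP8. It was at 60.4, 79.1 and 62.5 FPKM in shControl and at 32.6, 37.1 and 51.9 FPKM in shSLC1A5. All shSLC1A5 values were lower, but both groups were widely spread, and the log2 fold change was -0.75 ± 0.198 (SE; edgeR adjusted p = 0.0123). Without shControl replicate 2 the value was -0.62 and missed the threshold (0.0610), as it did with GC offsets (-0.57, 0.0633).

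MT-TT, the tRNA-Thr gene after MT-CYB, was at 169, 171 and 157 FPKM in shControl and at 115, 121 and 110.4 FPKM in shSLC1A5. Here the groups were tight and apart, at a log2 fold change of -0.53 ± 0.0986 (SE; edgeR adjusted p = 0.00162). MT-TF, the tRNA-Phe gene that opens the plus-strand series before MT-RNR1, was at 252, 242 and 241 FPKM against 170, 180 and 168 FPKM. Its log2 fold change was -0.52 ± 0.0715 (SE; edgeR adjusted p = 2.35e-04). Both stayed called with GC offsets, at -0.36 for MT-TT and -0.37 for MT-TF.

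MT-TP, the tRNA-Pro gene that lies opposite in strand next to MT-TT, was the only light-strand tRNA gene past the threshold. It was at 83.2, 82.8 and 77.9 FPKM in shControl and at 63.7, 63.6 and 56.7 FPKM in shSLC1A5, a log2 fold change of -0.42 ± 0.130 (SE; edgeR adjusted p = 0.0254). The groups did not overlap, but the call was lost without shControl replicate 1 (0.0819), shControl replicate 2 (0.0783) or shSLC1A5 replicate 3 (0.0804), and with GC offsets (-0.25, 0.217).

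The other 6 tRNA genes called lower all lie on the plus strand and fell by 0.22 to 0.39 on the log2 scale. MT-TV (tRNA-Val), between the rRNAs, was at 175, 174 and 189 FPKM against 132, 139 and 148 FPKM, with a log2 fold change of -0.37 ± 0.0907 (SE; edgeR adjusted p = 0.00774). MT-TL1 (tRNA-Leu of the UUR codons), after MT-RNR2, was at 415, 430 and 426 FPKM against 346, 378 and 376 FPKM (edgeR adjusted p = 0.00531). The groups of both genes were apart.

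MT-TI (tRNA-Ile) was at 88.9, 82.3 and 86.0 FPKM against 64.5, 64.8 and 68.3 FPKM (edgeR adjusted p = 0.0267), and its call was lost without any 1 of 5 of the 6 libraries, at adjusted p of 0.0530 to 0.0920, shSLC1A5 replicate 3 being the one that could be left out. MT-TH (tRNA-His), MT-TS2 (tRNA-Ser of the AGY codons) and MT-TL2 (tRNA-Leu of the CUN codons) form an unbroken row between MT-ND4 and MT-ND5 and moved by like amounts, with log2 fold changes of -0.38, -0.34 and -0.27. MT-TH was at 393, 395 and 353 FPKM against 301, 264 and 319 FPKM. MT-TL2 lost its call without shControl replicate 1 (0.0597), shControl replicate 2 (0.0581) or shSLC1A5 replicate 2 (0.0741). With GC offsets none of these 6 was called, at log2 fold changes from -0.24 to -0.07.

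The remaining 12 tRNA genes did not pass the test. Of these, MT-TD (tRNA-Asp), MT-TM (tRNA-Met), MT-TR (tRNA-Arg) and, on the light strand, MT-TQ (tRNA-Gln) had shSLC1A5 values wholly below shControl values. MT-TD was at 22.4, 24.4 and 30.4 FPKM against 16.5, 20.6 and 19.2 FPKM, with a log2 fold change of -0.47 ± 0.209 (SE; edgeR adjusted p = 0.10), and MT-TQ and MT-TM were at -0.31 and -0.29. Their low levels went with wide errors, and limma on log2 FPKM with a pseudocount of 1 called MT-TD (adjusted p = 0.0282), MT-TM (0.00384) and MT-TQ (7.78e-04) lower.

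Values of the other 8 overlapped between the groups: MT-TW (tRNA-Trp) and MT-TG (tRNA-Gly) on the plus strand, and MT-TA (tRNA-Ala), MT-TN (tRNA-Asn), MT-TC (tRNA-Cys), MT-TY (tRNA-Tyr), MT-TS1 (tRNA-Ser of the UCN codons) and MT-TE (tRNA-Glu) on the light strand. MT-TG, between MT-CO3 and MT-ND3, was at 305, 321 and 342 FPKM against 317, 304 and 312 FPKM, a log2 fold change of -0.06 ± 0.0609 (SE; edgeR adjusted p = 0.440). MT-TS1, which lies opposite to the end of MT-CO1 mRNA, was at 462, 441 and 481 FPKM against 405, 411 and 447 FPKM and passed the test without shControl replicate 2 (0.0372) or shSLC1A5 replicate 3 (0.0304). With GC offsets the log2 fold changes of MT-TG, MT-TA, MT-TN, MT-TC, MT-TY and of the mRNA MT-CO3 were above 0, none of them called. With the same offsets MT-TE moved from -0.17 to -0.01 and MT-TR from -0.13 to -0.03.

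By strand, 9 of the 14 plus-strand tRNA genes and 1 of the 8 light-strand ones were called lower, with median log2 fold changes of -0.35 and -0.13, against 19.0% called lower among all tested genes. With GC offsets these counts were 2 of the 14 (MT-TF and MT-TT) and 0 of the 8, against 13.8%. FPKM of 12 of the 14 and of 2 of the 8 lay wholly below the shControl libraries, against 22.3% of all tested genes. Light-strand genes held 52.5%, 51.6% and 51.8% of tRNA counts in shControl and 56.7%, 55.0% and 53.9% in shSLC1A5 (exact permutation p = 0.1, adjusted 0.15). Set against mRNA counts, plus-strand tRNA counts were 0.658% ± 0.00860 (SD, n = 3) in shControl and 0.569% ± 0.00849 (SD, n = 3) in shSLC1A5, with no overlap (exact permutation p = 0.1). Light-strand tRNA counts were 0.712% ± 0.0189 (SD, n = 3) and 0.703% ± 0.0393 (SD, n = 3) of mRNA counts and overlapped (exact permutation p = 0.7). This overlap came from shSLC1A5 replicate 1 alone, at 0.748%. Replicates 2 and 3 of shSLC1A5, at 0.685% and 0.675%, lay below the shControl libraries, at 0.733%, 0.705% and 0.697%.

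The 4 light-strand tRNA genes between MT-ND2 and MT-CO1 carried most of the light-strand tRNA signal and did not pass the test. MT-TC, MT-TY and MT-TN were the 3 tRNA genes of highest mean FPKM, and MT-TC stood at 748, 659 and 646 FPKM in shSLC1A5. In these 4 genes shSLC1A5 replicate 1, the library rich in RNAs without a poly(A) tail, was the highest of its group. It was also the highest in other genes of both strands, among them MT-TE, MT-TG and MT-RNR1. Without it, MT-TN (-0.19, edgeR adjusted p = 0.0111) and MT-TC (-0.16, 0.0247) were called lower, and MT-TA and MT-TY were not.

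Including MT-ND6, the light-strand genes held 2.22%, 2.07% and 2.10% of mitochondrial counts in shControl and 2.04%, 2.07% and 2.05% in shSLC1A5. The difference of -0.0781 percentage points is about as large as the SD of the shControl libraries, 0.0802, while the SD of the shSLC1A5 libraries was 0.0171. Without shControl replicate 1, the highest of the 6, it was -0.0322 percentage points, and shControl replicate 2 and shSLC1A5 replicate 2 nearly coincided (exact permutation p = 0.1, adjusted 0.15). The tRNA share of mitochondrial counts, 1.10% against 1.04%, overlapped between the groups (exact permutation p = 0.2, adjusted 0.277).

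Relative to the mRNAs or rRNAs on either side, tRNA genes differed widely in level. In shControl, FPKM of MT-TC, MT-TY and MT-TN came to 23.2%, 21.5% and 20.5% of the mean FPKM of MT-ND2 and MT-CO1, whereas MT-TW, which lies in the same interval on the plus strand, came to 0.452%. MT-TD and MT-TK, in the intervals on either side of MT-CO2, came to 0.622% and 1.43%, and MT-TL1 to 17.3%. In shSLC1A5 these values were 23.6%, 22.5% and 20.5% for the first 3, 0.391% for MT-TW, 0.484% for MT-TD, 0.908% for MT-TK and 17.4% for MT-TL1. MT-TT fell from 11.1% to 7.53% of MT-CYB, its only flanking mRNA.

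Nuclear copies of mitochondrial genes are a known source of uncertain reads. The table lists 86 of them, which together took 0.243% to 0.271% of counts. Of 7 such copies that lie in 1 stretch of chromosome 1 (GRCh38), 3 had counts that were a sizeable part of those of their mitochondrial originals. MTCO1P12 (1:631074-632616), 98.6% identical to MT-CO1 over 1543 aligned bases, had 23.2% to 24.4% of the counts of MT-CO1. MTND2P28 (1:629640-630683), 98.4% identical, had 15.5% to 16.6% of those of MT-ND2, and MTATP6P1 (1:633696-634376), 98.5% identical, had 14.2% to 15.2% of those of MT-ATP6.

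Each of the 3 copies holds a longest run identical to the mitochondrial gene of 141 to 266 bases, as long as or close to a whole read, so counts could be split between copy and original, and the levels of MT-CO1, MT-ND2 and MT-ATP6 are uncertain for that reason. The 4 other copies of the stretch, next to those 3, had less than 0.1% of the counts of theirs. Their longest identical runs were 62 to 158 bases. The run of 158 bases, in MTND1P23, is longer than that of 141 bases in MTATP6P1. The length of the run alone thus did not set the 3 copies apart, and why their counts differ from those of the 4 was not tested. Adding the counts of the 3 copies to their originals, a step chosen after seeing the data, left 23 mitochondrial genes called lower, and no call of a mitochondrial gene changed.

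The nuclear genome encodes the proteins that copy, transcribe, cut, modify and degrade these RNAs. Of 53 listed genes of this kind, all tested, 6 were higher and 10 lower in shSLC1A5, which is 30.2% called against 39.2% of all tested genes, and the median log2 fold change was -0.02. POLRMT, the mitochondrial RNA polymerase, rose from 5.12, 5.93 and 5.57 FPKM to 7.77, 8.18 and 8.02 FPKM, a log2 fold change of 0.52 ± 0.0541 (SE; edgeR adjusted p = 3.53e-05), and was at 0.17 (0.0353) with GC offsets. DHX30, an RNA helicase of the mitochondrial ribosome and RNA granule, rose by 0.29, and with GC offsets it was at 0.09 and not called (0.142).

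Among the genes that fell were NSUN3, which methylates the mitochondrial tRNA-Met (log2 fold change -0.34, edgeR adjusted p = 7.97e-04), and SSBP1, the single-stranded DNA-binding protein of mtDNA (-0.24, 0.00132). FASTKD1, an RNA-binding protein of the organelle, fell by 0.27, MTERF1, which binds within MT-TL1, by 0.25, MTO1, a tRNA-modifying enzyme, by 0.21, and NSUN4, which acts on the 12S rRNA and in ribosome assembly, by 0.18. With GC offsets NSUN3 and SSBP1 stayed called and FASTKD1 (0.0771), MTERF1 (0.0827), MTO1 (0.131) and NSUN4 (0.0705) did not, and 3 of the 53 genes were then higher and 3 lower, which is 11.3% called against 25.4% of all tested genes. MTO1 was also lost without shControl replicate 1 (0.0750), shControl replicate 3 (0.0543) or shSLC1A5 replicate 2 (0.102).

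The main packaging and mRNA-binding proteins did not pass the test. TFAM, which packages mtDNA and starts its transcription, was at 11.1, 11.5 and 11.2 FPKM in shControl and 11.2, 10.6 and 11.1 FPKM in shSLC1A5 (edgeR adjusted p = 0.281). LRPPRC and SLIRP, which together bind and stabilize mitochondrial mRNAs, had log2 fold changes of -0.04 (0.189) and -0.13 (0.319). That of TFAM was -0.06. With GC offsets TFAM, LRPPRC and SLIRP turned to 0.01, 0.02 and 0.01, none of them called. Of the nuclear genes for respiratory chain and ATP synthase subunits, 83 in number, 78 were tested: 20 were higher and 12 lower, which is 41.0% called, near the 39.2% of all tested genes. With GC offsets 21 were higher and 4 lower, which is 32.1% called, against 25.4% of all tested genes (11.6% higher and 13.8% lower).

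**Figure D5:**
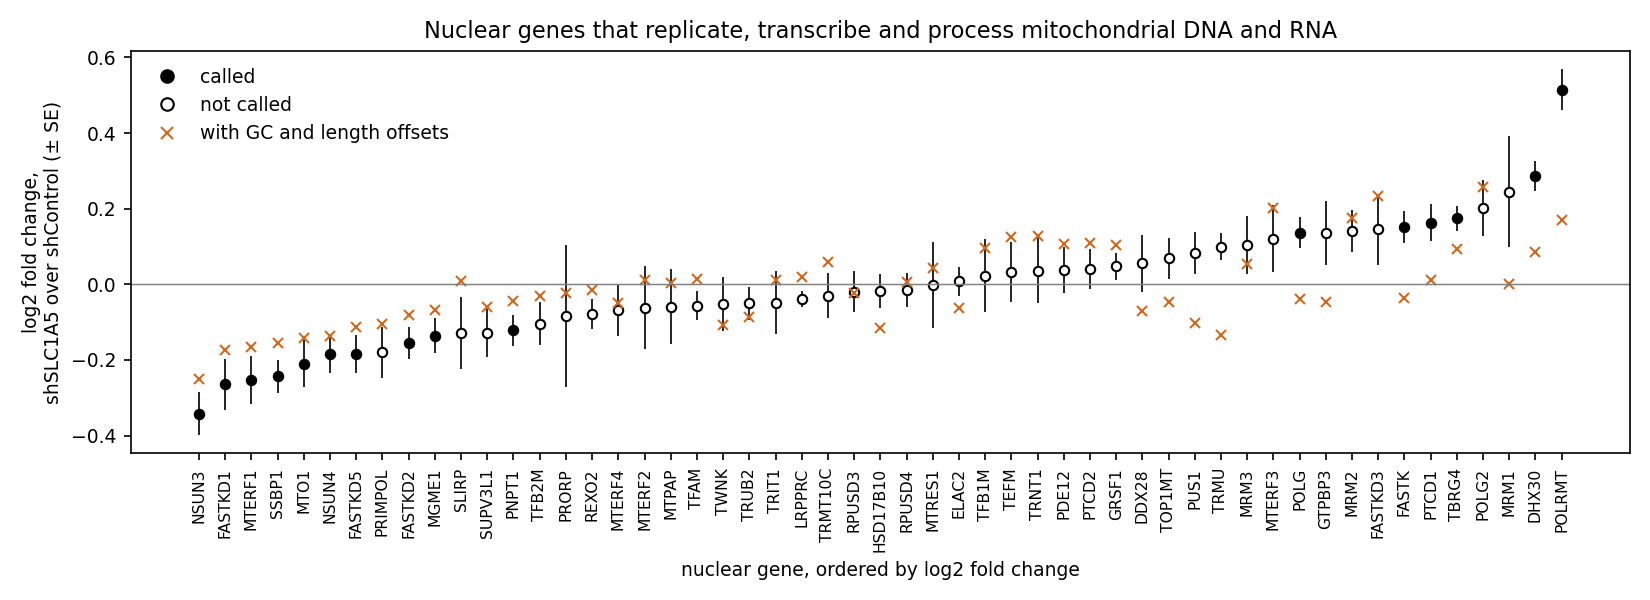
Log2 fold changes of shSLC1A5 against shControl for the 53 nuclear genes that act on mitochondrial DNA and RNA, ordered by value, with bars of 1 SE, filled points for genes past the test and crosses for the values with GC offsets. POLRMT at 0.52 and DHX30 at 0.29 are the highest and NSUN3 at -0.34 is the lowest, and the crosses of POLRMT and DHX30 lie at 0.17 and 0.09.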

How the data were processed

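RNA was isolated with TRIzol and enriched for poly(A) RNA on oligo(dT) beads, and paired reads were taken on an Illumina NovaSeq, per the labels' protocols. fastp, HISAT2 and StringTie are named in the submitters' processing notes. The sources used here do not give the genome build, the strand setting or the treatment of reads with several matches. The authors deposited counts per gene for 6 libraries, per the file headers. FPKM, normalized by the authors to gene length and library size per the file headers, stand in the same table, and 1 factor per library ties both units, to within 1.54% over the 37 genes.

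Counts of the 11841 genes averaging 1 FPKM or more were tested with edgeR 4.0.16 in R 4.3.3: TMM, group as the only term, quasi-likelihood F test, Benjamini-Hochberg adjustment over all tested genes, threshold 0.05. The biological coefficient of variation was 0.0982. Standard errors are the log2 fold change divided by the square root of F. Shares and ratios, 18 in number, were tested with exact two-sided permutation tests. DESeq2 1.42.0, limma 3.58.1 (pseudocounts 1 and 0.1), other scalings and filters, a replicate block, leaving out each library, and loess offsets (span 0.3) of GC content and length from the longest GENCODE 29 transcript were alternatives. All 13 mRNAs and 2 rRNAs are named, as are the tRNAs past the threshold, the 3 of most counts and others described by position. Up to 8 called genes of the nuclear list are named by size, with TFAM, POLRMT, LRPPRC and SLIRP. The mitochondrial genes and the lists were chosen with earlier results of these data known. Sequences are from GENCODE 29 transcripts.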

Additional observations from a re-analysis of the deposited data

How the results depend on the processing

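Over 20 alternatives and 37 mitochondrial genes, 642 of 740 results kept both their sign and their call, 61 lost a call, 18 gained one and 7 called values turned direction. The other 12, of 6 genes that were not called, turned sign with the offsets below. MT-RNR1, MT-RNR2, MT-ND1, MT-ND5, MT-TF and MT-TT were called lower under each of the 20. With offsets for GC content and length the calls fell from 23 to 9 among the mitochondrial genes, from 4641 to 3004 among all tested genes and from 16 to 6 on the nuclear list, and the mitochondrial median moved to -0.0689. With a replicate block added to the offsets they were 7, 2824 and 6, again at -0.0689, MT-CO1 and MT-ND6 being the 2 lost. With these offsets, without and with the block, MT-ND2 was at 0.000314 and 0.000487, MT-CO2 at 0.00126 and 0.000931, MT-ND4 at 0.0191 and 0.0191, POLG at -0.0387 and -0.0386 (0.14 without offsets) and FASTK at -0.0360 and -0.0366 (0.15 without offsets). After quantile normalization MT-ND2 was at 0.0160. With no filter on low values 7 nuclear list genes and 16 mitochondrial genes were called. The causes of these changes were not tested.

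In place of counts, sums of FPKM gave a difference between the groups of -1.37 percentage points for the mitochondrial share. The rRNA share differed by -1.03 and the tRNA share by -0.638 percentage points. FPKM weights short genes more than counts do, but why these differences depart from those of counts was not tested. With the rRNAs left out, the mitochondrial share differed by -0.190, the light-strand share by -0.148 and the tRNA share by -0.0950 percentage points. Leaving out each library in turn gave 17 to 24 mitochondrial calls, 3863 to 4081 calls in all, 11 to 16 on the nuclear list, and -0.338 to -0.278 percentage points for the mitochondrial share. Same-numbered libraries had correlations of -0.15, 0.04 and -0.03 in their deviations, so the numbers were not taken to pair them. A replicate block alone gave 23 mitochondrial calls and 4470 in all. With 3 libraries a group, no exact test of a share can pass 0.05.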
